A study of Homo sapiens with 8 samples.

Results

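The zinc finger genes of chromosome 19 were described in human ovarian cancer cells that lack or carry a functional BRCA1, with and without an inhibitor of histone deacetylases. The members were all genes of the count table that lie on chromosome 19 and whose symbol is ZNF followed by a number, which gave 259 of 25369 named genes. Poly(A) RNA was sequenced from 4 groups of 2 libraries each, 8 libraries in all. The groups were UWB1.289 cells, an ovarian cancer line with a BRCA1 mutation that truncates the protein (BRCA1-null), and the same line transduced with BRCA1 (BRCA1+), each given DMSO or 0.5 μM entinostat for 24 h. Entinostat inhibits HDAC1 and HDAC3, class I histone deacetylases, and DMSO is its solvent. Every group carried the line's own BRCA1 mutation, and the BRCA1+ groups carried the transduced gene in addition. The study used 1 such pair of lines, so BRCA1 and any other difference between the lines cannot be told apart. The labels do not say whether the libraries of a group came from separate cultures, so the p-values measure only the spread between these libraries.

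Most ZNF genes of this chromosome encode C2H2 zinc finger proteins, in which a row of fingers reads a DNA sequence and, in many members, a KRAB domain recruits the corepressor TRIM28 (KAP1). TRIM28 brings the histone methyltransferase SETDB1, HP1 proteins and histone deacetylases, which silence the bound DNA, often a transposable element. The genes arose by tandem duplication, lie in clusters along both arms of the chromosome, and are themselves often packaged with the repressive mark H3K9me3 at their finger exons.

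BRCA1 itself had 3954 and 4239 counts in BRCA1+ with DMSO and 954 and 1218 in BRCA1-null with DMSO (log2 fold change −2.14, adjusted p = 5.46e-07 by edgeR's quasi-likelihood test). The libraries held 31900158 to 53549893 counts. PAX8, which marks ovarian carcinoma, had group means of 347 to 379 CPM (counts per 1e+06 counts of the library), while WT1, another marker of serous carcinoma, stayed at 0.053 to 0.42 CPM. The leukocyte gene PTPRC had 2.6 to 4.37 CPM. Of 3 fibroblast genes, PDGFRB had at most 0.0698 CPM, while COL1A1 had 4.26 to 19.9 and COL1A2 11.1 to 30.2, and in DMSO both were higher in the BRCA1-null line (log2 fold change 1.09 and 1.33, adjusted p = 0.000698 and 0.0109 by edgeR). Of 3 endothelial genes, CDH5 (5.49 to 73.4 CPM) and VWF (1.2 to 3.01) were also higher there, and PECAM1 (2.87 to 6.67) did not pass the test. The part of such genes in the line differences was not tested. In bulk RNA, fewer cells of a type and less RNA per cell cannot be told apart.

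The members were transcribed at low levels. Of the 259, 250 passed the filter on low counts and were tested, and the other 9 were ZNF560, ZNF812, ZNF878, ZNF826P, ZNF729, ZNF728, ZNF536, ZNF781 and ZNF534. Per kb of gene model (RPKM, mean of all libraries), the tested members had a median of 1.92, against 3.05 for tested ZNF genes of other chromosomes, 8.76 for the other genes of chromosome 19 and 5.40 for all tested genes. Their levels ran from 0.0854 to 36.9 RPKM, with 190 members at 1 or more and 15 at 10 or more. The 5 highest were ZNF542P (36.9 RPKM), ZNF358 (34.1), ZNF146 (33.2), ZNF787 (30.1) and ZNF581 (19.6).

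Most of these highest members differed little between the lines. ZNF542P, a pseudogene transcript, had 132 and 168 CPM in BRCA1+ with DMSO and 123 and 149 in BRCA1-null with DMSO, which overlap (log2 fold change −0.14, adjusted p = 0.52). ZNF146 had 128 and 136 against 113 and 122 CPM (−0.16, adjusted p = 0.0846), and ZNF787 had 74.1 and 66.6 against 53.8 and 63.4 (−0.26, adjusted p = 0.153). In both, the BRCA1-null libraries lay below the BRCA1+ ones without passing the test. ZNF358 passed it, with 59.1 and 50.2 CPM in BRCA1+ and 63.4 and 69.3 in BRCA1-null (0.28, SE 0.0967, adjusted p = 0.0402), a call lost in 5 of 15 alternative fits. ZNF581 had 22.8 and 22.9 against 25.9 and 22.8 CPM (0.09, adjusted p = 0.426).

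The members' promoters held CpG and CCGGAAGT more often than promoters in general, given as shares with no test. CCGGAAGT is a sequence that ETS-family activators such as GABPA read. RefSeq promoters (GRCh38.p14, 250 bases before to 50 after the start) were matched to 220 of the 259 members, 3 of them under another symbol. For ZNF233 the match was the promoter of ZNF224, another member. That promoter is therefore counted for both, and it held no CCGGAAGT. CCGGAAGT, on either strand, stood in 45 of them (20.5%), against 4.44% of all 27305 promoters, 13.3% of those of ZNF genes elsewhere and 4.29% of those of the other genes of chromosome 19. The pentamer CCAAT was in 53.6% of member promoters and 35.7% of all, AAGATGGC, the core read by YY1, in 6.82% and 3.03%, and GCGCATGC, the core read by NRF1, in 4.09% and 3.27%. The other motifs searched, also on both strands and each counted on its own whether or not it overlapped another, were TCTCGCGA (1.82% of member promoters and 1.19% of all), the CRE sequence TGACGTCA (3.18% and 1.98%) and TATAAA (1.82% and 11.95%). The median ratio of observed to expected CpG was 0.771 in members and 0.580 in all promoters, but 0.809 in ZNF genes elsewhere. GCGCATGC was likewise more frequent in ZNF genes elsewhere (7.81%) and in the other genes of chromosome 19 (5.17%) than in members. A match is a description of letters, not a site of binding.

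The promoters of 5 members whose values are given further on are printed to show these letters in place, 5′ to 3′ on the gene's strand, with CCGGAAGT, GCGCATGC or AAGATGGC on either strand in capitals. They are ZNF175 (chr19:51571033-51571332, plus strand), ZNF132 (chr19:58440104-58440403, minus), ZNF416 (chr19:57578862-57579161, minus), ZNF585A (chr19:37172646-37172945, minus) and ZNF615 (chr19:52008162-52008461, minus), all in GRCh38.p14.
ZNF175: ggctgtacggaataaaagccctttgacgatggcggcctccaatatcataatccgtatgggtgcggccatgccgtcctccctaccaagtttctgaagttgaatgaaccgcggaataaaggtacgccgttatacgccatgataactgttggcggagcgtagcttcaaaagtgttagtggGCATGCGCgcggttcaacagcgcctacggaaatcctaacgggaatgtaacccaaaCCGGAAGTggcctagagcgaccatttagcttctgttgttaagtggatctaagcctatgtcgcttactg
ZNF132: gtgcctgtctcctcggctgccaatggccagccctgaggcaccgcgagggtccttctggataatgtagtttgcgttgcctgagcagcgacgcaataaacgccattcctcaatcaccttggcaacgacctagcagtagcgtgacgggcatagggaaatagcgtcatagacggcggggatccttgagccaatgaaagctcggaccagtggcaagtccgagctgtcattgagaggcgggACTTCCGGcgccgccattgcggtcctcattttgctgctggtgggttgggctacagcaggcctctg
ZNF416: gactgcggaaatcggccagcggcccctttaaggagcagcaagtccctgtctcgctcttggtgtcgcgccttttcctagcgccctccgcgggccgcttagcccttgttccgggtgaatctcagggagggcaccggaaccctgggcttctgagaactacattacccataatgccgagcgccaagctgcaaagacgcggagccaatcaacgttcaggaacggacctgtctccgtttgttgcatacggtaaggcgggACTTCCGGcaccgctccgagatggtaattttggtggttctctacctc
ZNF585A: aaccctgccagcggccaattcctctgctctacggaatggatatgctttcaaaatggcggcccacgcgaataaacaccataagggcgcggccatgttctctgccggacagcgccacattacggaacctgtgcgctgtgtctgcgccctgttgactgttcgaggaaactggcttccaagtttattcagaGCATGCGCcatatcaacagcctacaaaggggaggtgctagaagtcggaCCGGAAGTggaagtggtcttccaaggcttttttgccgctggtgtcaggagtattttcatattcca
ZNF615: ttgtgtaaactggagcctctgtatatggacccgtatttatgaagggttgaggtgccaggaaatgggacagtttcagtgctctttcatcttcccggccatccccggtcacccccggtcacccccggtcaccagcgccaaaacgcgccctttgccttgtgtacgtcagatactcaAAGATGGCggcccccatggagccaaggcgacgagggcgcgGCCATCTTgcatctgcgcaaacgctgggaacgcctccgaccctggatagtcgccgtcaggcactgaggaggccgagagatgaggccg

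The promoters of ZNF132 and ZNF416 held CCGGAAGT on the opposite strand, beginning 15 bases before the start in ZNF132 and 3 bases after it in ZNF416. Those of ZNF175 and ZNF585A held both CCGGAAGT, 18 and 15 bases before the start, and the NRF1 core, 73 and 63 bases before it. Only ZNF585B and ZNF653 among the other matched members held both, so that 4 members (1.82%) did, against 90 of 27305 promoters (0.33%). ZNF615 held AAGATGGC in both orientations, 77 and 37 bases before the start. Of members called lower in BRCA1-null cells with DMSO, 12 of 42 promoters (28.6%) held CCGGAAGT, against 31 of 166 (18.7%) of those not called, given as counts with no test. In block 8 of the positional blocks set out below, where lower calls were most frequent, 5 of 33 matched promoters (15.2%) held it. That share is below the 20.5% of all matched members, so no link between the sequence and lower levels is drawn. The 42 include ZNF233, matched to the promoter of ZNF224, which was not called.

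The first question was how the members differ between BRCA1-null and BRCA1+ cells. In DMSO, 63 of the 250 tested members (25.2%) passed an adjusted p of 0.05 by edgeR's quasi-likelihood test, against 42.2% of all 17714 tested genes. Of these, 13 were higher and 50 lower in BRCA1-null cells, where the background was 21.1% higher and 21% lower. The share of lower calls (20% of members) was thus close to that of all genes, while higher calls were few (5.2%). The median log2 fold change of the tested members was −0.18, against 0.01 for all tested genes, and 188 of 250 members (75.2%) had a negative value. The differences were mostly small. The 50 lower members spanned −1.60 to −0.23 with a median of −0.49, and 46 of them changed by under 1 on the log2 scale.

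In entinostat, a comparison of other libraries, 54 members (21.6%) differed between the lines, 7 higher and 47 lower in BRCA1-null cells, against 39.4% of all genes (20.5% higher and 18.9% lower). The median was −0.20 against 0.02 for all genes, and 193 members (77.2%) were negative. Of the members called, 37 were called under both treatments (58.7% of those in DMSO and 68.5% of those in entinostat), all in the same direction, with 31 lower and 6 higher. Across the 250 members, Pearson's r between the line difference in DMSO and that in entinostat was 0.841, beside 0.863 over all tested genes, a description across genes that share 2 lines. This r includes ZNF175, the largest value in both (5.33 and 3.89). Spearman's rho, which uses ranks, was 0.717 across members and 0.813 over all tested genes.

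The same counts were made in ZNF genes elsewhere and in the rest of chromosome 19. Of 256 tested ZNF genes elsewhere, 48 were higher and 34 lower in BRCA1-null cells in DMSO (median 0.07), and 54 higher and 23 lower in entinostat (median 0.08). Of 1012 tested other genes of chromosome 19, 163 were higher and 214 lower in DMSO (median −0.07), and 123 higher and 234 lower in entinostat (median −0.07). Summed over the members, the 4 BRCA1+ libraries had 2659 to 2816 CPM and the 4 BRCA1-null libraries 2374 to 2488 CPM, without overlap. The libraries of the lines did not overlap for 154 members in DMSO (31 higher and 123 lower, 61.6% against 70.9% of all tested genes) and for 153 in entinostat (24 higher and 129 lower, 61.2% against 69.5%).

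The counts of calls rested in part on single libraries and on low levels. Without the second BRCA1+ DMSO library 22 members were called in DMSO (beside 5312 genes in all), without the second BRCA1-null DMSO library 31 (beside 5431) and without the first 40 (beside 6346), where the fit of all libraries called 7472 genes. In entinostat the count was 20 (beside 4527 genes) without the second BRCA1+ library, 32 (beside 5203) without the first, 28 (beside 5464) without the second BRCA1-null library and 31 (beside 5557) without the first, where the fit of all libraries called 6975. The calls over all genes thus fell too. Of the 104 members whose log2 CPM averaged 3 or more, 31 were called in DMSO (3 higher and 28 lower), against 49.2% of all genes at that level, and 27 in entinostat (1 higher and 26 lower), against 46.9%. Their median was −0.16 in both treatments, against −0.05 in DMSO and −0.02 in entinostat for all genes at that level. The other genes of chromosome 19 at that level had −0.09 and −0.08. All genes at that level had 2136 higher and 3040 lower calls of 10527 in DMSO, and 2336 higher and 2604 lower in entinostat. The median standard error of a fold change was 0.146 for members and 0.124 for all tested genes.

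**Figure D1:**
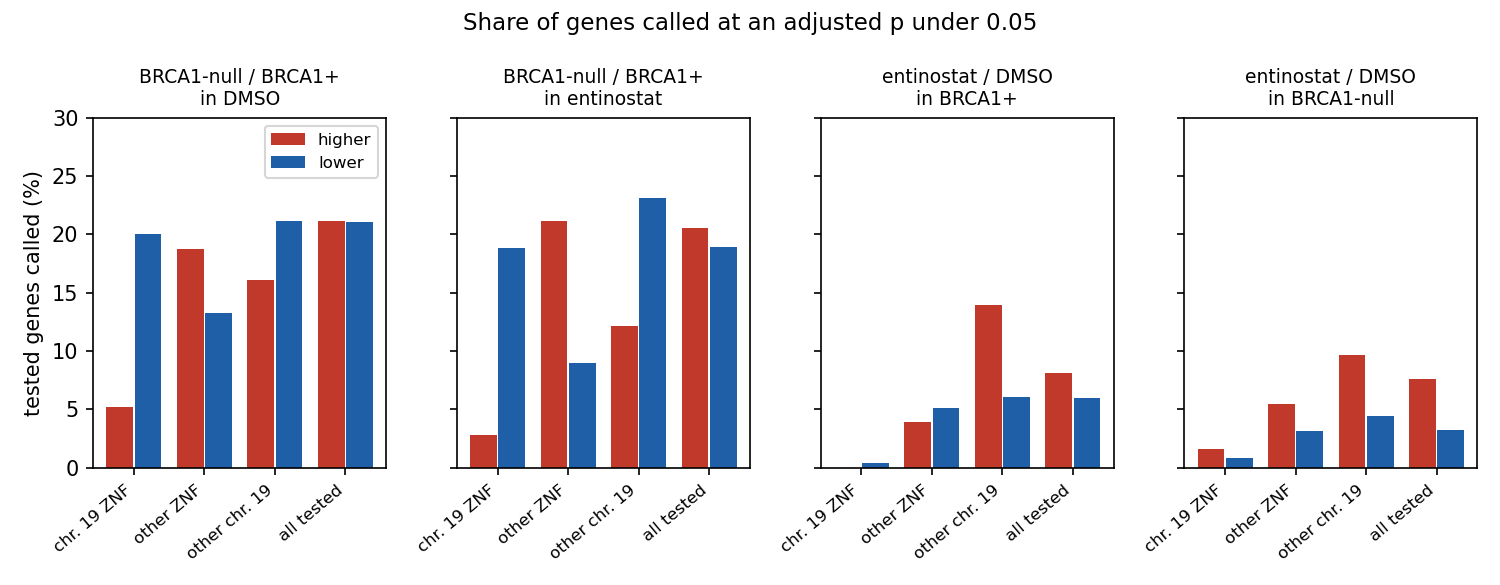
Percent of tested genes called higher or lower at an adjusted p of 0.05 (y axis, bars from 0) in each of the 4 comparisons, for the zinc finger genes of chromosome 19 (250 tested), ZNF genes elsewhere (256), other genes of chromosome 19 (1012) and all tested genes (17714). The members' bars for higher calls between the lines are short (5.2% in DMSO), and their bars for entinostat reach 1.6% at most.

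Position along the chromosome was described by blocks, in which neighbouring members are at most 1 Mb apart and which hold at least 5 members. There were 9 such blocks with 248 members (coordinates in hg19), and 11 members lay outside them. Blocks 1 to 4 lie on the short arm. They run from ZNF554 to ZNF77 (5 members, chr19:2819872-2944969), from ZNF557 to ZNF846 (17, chr19:7069471-9879410), from ZNF653 to ZNF791 (28, chr19:11594242-12740676) and from ZNF101 to ZNF254 (36, chr19:19779663-24312769). Blocks 5 to 9 lie on the long arm. They run from ZNF302 to ZNF792 (5, chr19:35168544-35454953), from ZNF565 to ZNF573 (28, chr19:36672962-38270230), from ZNF575 to ZNF296 (24, chr19:44037340-45579688), from ZNF175 to ZNF331 (43, chr19:52074531-54083523) and from ZNF628 to ZNF446 (62, chr19:55987699-58992597).

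Lower members were most frequent in block 8. In DMSO the median line difference was −0.17, −0.02, 0.02 and −0.14 in blocks 1 to 4, and 0.33, −0.20, −0.17, −0.29 and −0.24 in blocks 5 to 9. In entinostat it was −0.17, 0.00, −0.19 and −0.14, and then 0.41, −0.23, −0.23, −0.36 and −0.21. In block 8, 17 of 42 tested members were called lower in DMSO (40.5%) and 20 in entinostat (47.6%). Block 9 had 13 of 62 (21%) and 15 of 62 (24.2%), and its share in DMSO was close to that of block 7 (20.8%), of block 6 (18.5%) and of all members (20%). Of all tested genes, 21% were called lower in DMSO and 18.9% in entinostat, so block 9 in DMSO was also close to that share. Of the 10 tested members outside the blocks 4 were lower in DMSO and 3 in entinostat. The shares of blocks were not tested against each other.

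**Figure D2:**
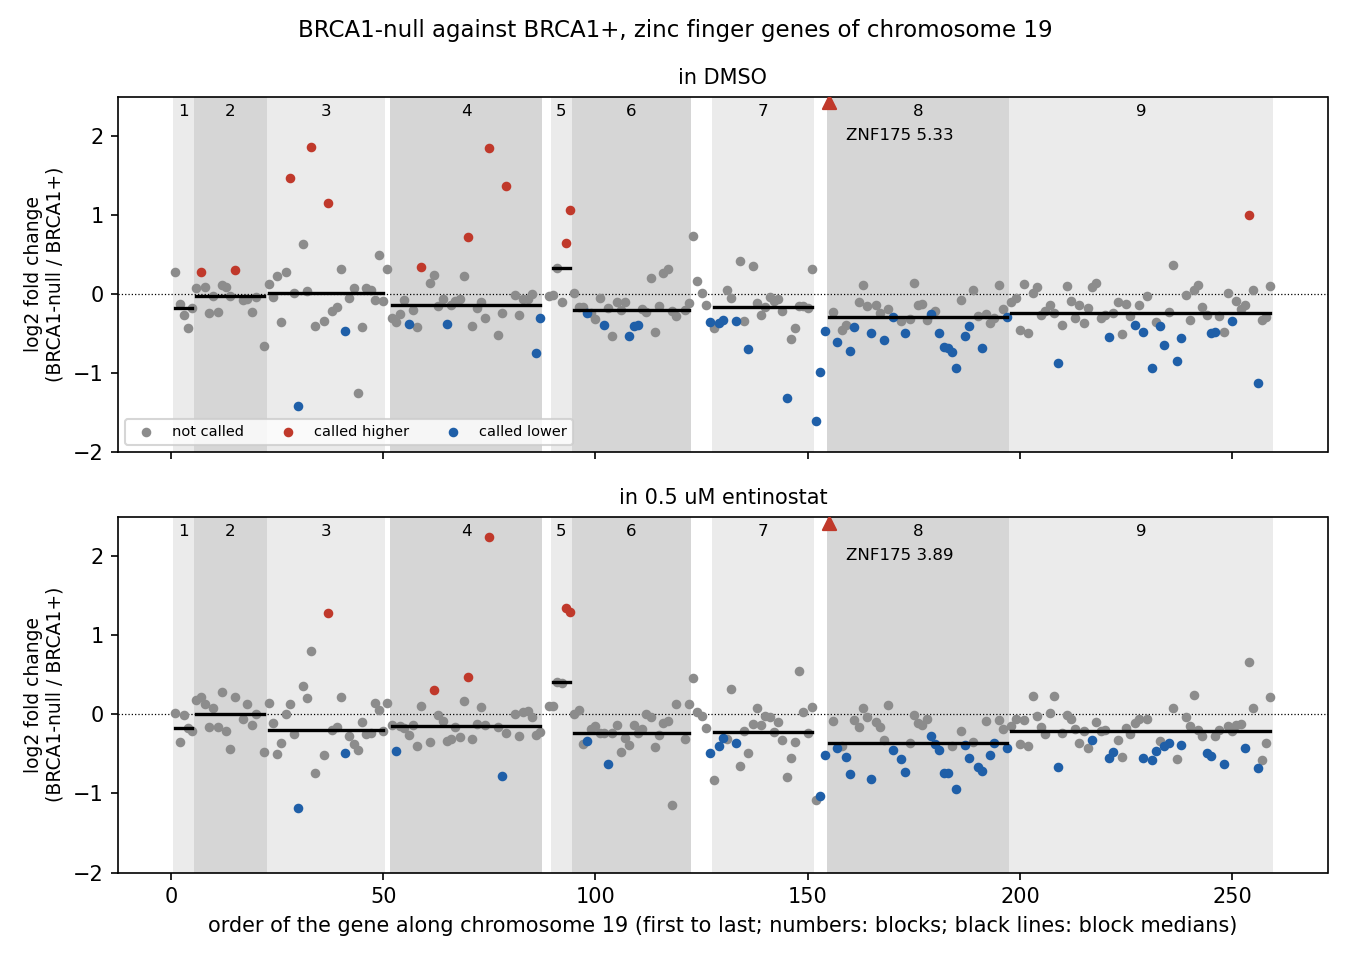
Log2 fold change of BRCA1-null over BRCA1+ (y axis) for each tested member in its order along chromosome 19 (x axis), in DMSO above and in entinostat below, with called genes in colour, the 9 blocks shaded and black lines at block medians. Blue points are densest in block 8, where 17 of 42 members are called lower in DMSO and the median is −0.29, most red points lie in blocks 3 to 5, and ZNF175 lies beyond the axis (5.33 and 3.89).

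Block 8 had 42 tested members, of which 37 were below 0 in DMSO and 39 in entinostat. In DMSO 17 were lower and 1 higher, and in entinostat 20 were lower and 1 higher. Over all tested genes, 49% were below 0 in DMSO and 48.2% in entinostat, and 21% and 18.9% were called lower. ZNF702P, a pseudogene (chr19:53471504-53496784, hg19), had 46.5 and 53.3 CPM in BRCA1+ with DMSO, 54.8 and 56.7 in BRCA1+ with entinostat, 24.7 and 27.5 in BRCA1-null with DMSO, and 28.8 and 29.2 in BRCA1-null with entinostat. Every BRCA1-null library lay far below every BRCA1+ library, and the log2 fold change was −0.93 in DMSO (SE 0.0871, adjusted p = 4.56e-05) and −0.94 in entinostat (SE 0.0873, adjusted p = 4.75e-05).

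ZNF615, a zinc finger gene in the same block, had 5.50 and 6.27 CPM in BRCA1+ with DMSO and 3.65 and 3.57 in BRCA1-null with DMSO (−0.71, adjusted p = 0.00366). In entinostat it had 7.41 and 6.75 against 3.99 and 4.41 CPM (−0.75, adjusted p = 0.00262). The lines did not overlap under either treatment. ZNF836, also in block 8, had 4.08 and 3.86 against 2.51 and 3.11 CPM in DMSO (−0.49, adjusted p = 0.0443) and 4.76 and 4.46 against 2.43 and 2.80 in entinostat (−0.82, SE 0.174, adjusted p = 0.00518). Its line difference was called in both treatments, with non-overlapping libraries.

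Among other members of block 8 called lower in DMSO were 3 with higher levels than ZNF615 and ZNF836, chosen after their values were seen. ZNF320 had 30.1 and 28.4 CPM in BRCA1+ with DMSO and 20.2 and 21.4 in BRCA1-null (−0.49, adjusted p = 0.00141). ZNF649 had 13.7 and 13.9 against 8.77 and 9.42 CPM (−0.60, adjusted p = 0.00228), and ZNF347 had 17.6 and 18.5 against 13.1 and 14.1 (−0.41, adjusted p = 0.00903). In all 3 the BRCA1-null libraries lay below the BRCA1+ ones. ZNF816, ZNF321P and the readthrough gene ZNF816-ZNF321P (−0.73, −0.67 and −0.68) were also chosen after their values were seen. They overlap in their coordinates and may share reads, so they cannot be taken as 3 separate results. ZNF83, the member of the block with the most RNA per kb after ZNF702P, is given with the results known. It was not called, with 31.3 and 36.2 CPM in BRCA1+ and 31.5 and 29.9 in BRCA1-null with DMSO.

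Some members of block 8 have known roles and were named for them with the results known. ZNF350 (ZBRK1) is a KRAB repressor that binds BRCA1. It had 5.40 and 7.15 CPM in BRCA1+ and 4.99 and 4.65 in BRCA1-null with DMSO (−0.39, adjusted p = 0.0733). In entinostat it had 6.56 and 7.22 against 4.86 and 4.65 CPM, and the difference passed the test there (−0.54, adjusted p = 0.025). The libraries of the lines did not overlap in either treatment. ZNF331, an imprinted KRAB gene at the end of the block, had 25.9 and 25.3 against 22.1 and 19.9 CPM in DMSO (−0.29, adjusted p = 0.0379, lost in 7 of 15 alternatives) and 27.1 and 23.5 against 19.4 and 18.0 in entinostat (−0.43, adjusted p = 0.00764).

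ZNF175, the first member of block 8, went the other way. Its protein has been described as a repressor of HIV-1 transcription in macrophages. It had 0 and 3 counts in BRCA1+ with DMSO, 0 and 9 in BRCA1+ with entinostat, 70 and 81 in BRCA1-null with DMSO and 90 and 65 in BRCA1-null with entinostat. Of the 4 BRCA1+ libraries, 3 were at or under the floor of 3 counts, and every BRCA1-null library was far above it. Scaled to library size, the ratio of BRCA1-null to BRCA1+ counts was 43.3 in DMSO (95% exact binomial interval 14.5 to 212) and 15.2 in entinostat (7.79 to 33.8), intervals that cover counting error only. The difference was called in both treatments (adjusted p = 0.000195 and 0.000335). It was named after its value was seen, since its mean level was below that set for named genes.

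**Figure D3:**
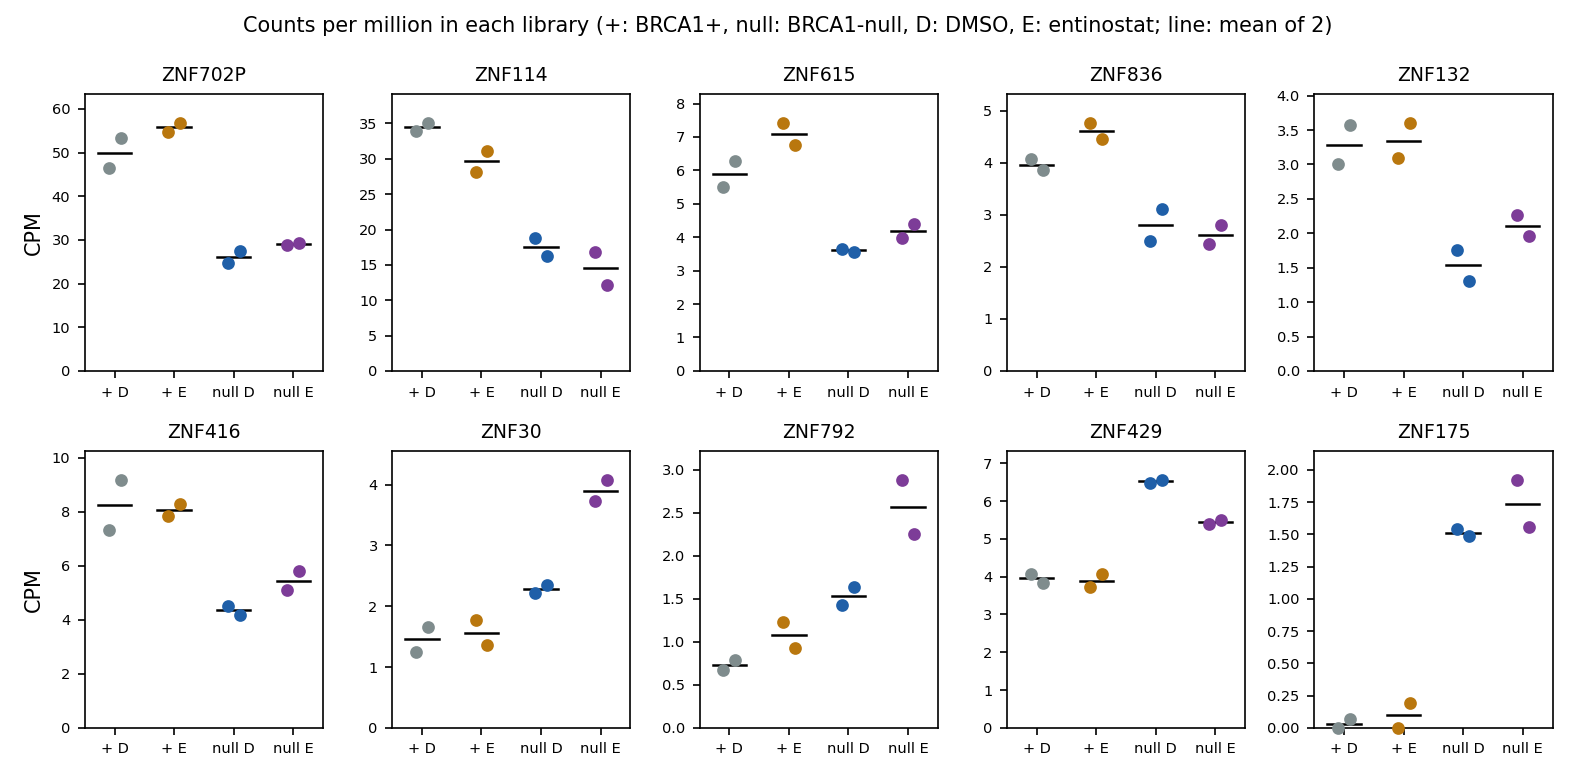
CPM (y axis, from 0) in each of the 8 libraries for 10 members, with points for libraries and a line at the mean of 2. ZNF702P, ZNF114, ZNF615, ZNF836, ZNF132 and ZNF416 are lower, and ZNF30, ZNF792, ZNF429 and ZNF175 higher, in BRCA1-null than in BRCA1+ libraries.

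Block 9, at the end of the long arm, had 62 tested members, of which 49 were below 0 in DMSO and 54 in entinostat. In DMSO 13 were lower (21%, the same share as of all tested genes) and 1 higher. In entinostat 15 were lower (24.2%, against 18.9% of all tested genes) and none higher. Below 0 were 49% of all tested genes in DMSO and 48.2% in entinostat. ZNF132 (chr19:58944181-58951589, hg19) had 3.00 and 3.57 CPM in BRCA1+ with DMSO, 3.09 and 3.60 in BRCA1+ with entinostat, 1.76 and 1.31 in BRCA1-null with DMSO and 2.26 and 1.96 in BRCA1-null with entinostat. All BRCA1-null libraries lay below all BRCA1+ libraries, with a log2 fold change of −1.12 in DMSO (SE 0.215, adjusted p = 0.00281) and −0.67 in entinostat (SE 0.209, adjusted p = 0.0291).

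ZNF416 had 7.33 and 9.17 CPM in BRCA1+ and 4.53 and 4.19 in BRCA1-null with DMSO (−0.93, adjusted p = 0.00107), and 7.85 and 8.28 against 5.10 and 5.82 in entinostat (−0.57, adjusted p = 0.0142). The lines were again apart in both treatments. ZNF582-AS1, antisense by its symbol in the count table and matched above to the promoter of ZNF582-DT, had 9.78 and 10.1 against 5.16 and 5.72 CPM in DMSO (−0.87, adjusted p = 0.000417). In entinostat ZNF582-AS1 had 11.6 and 12.4 against 7.98 and 7.14 CPM (−0.66, adjusted p = 0.0015). Its neighbour ZNF582 did not pass the test in DMSO (−0.23, adjusted p = 0.37), but whether strand was used in counting is not given in the sources used here, so reads of the 2 genes may not be separable. ZNF304 and ZNF776, chosen after their values were seen, had log2 fold changes of −0.54 (adjusted p = 0.00377) and −0.56 (adjusted p = 0.00716) in DMSO. ZNF837 was the one member of block 9 called higher, with 1.55 and 1.2 CPM in BRCA1+ and 2.35 and 3.07 in BRCA1-null (1.00, SE 0.267, adjusted p = 0.0143).

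ZNF274, also in block 9 and named for its role with the results known, encodes a KRAB protein that recruits SETDB1 to the 3′ ends of other zinc finger genes. It had 27.4 and 27.0 CPM in BRCA1+ with DMSO, 23.0 and 25.7 in BRCA1+ with entinostat, 22.4 and 20.7 in BRCA1-null with DMSO and 20.7 and 21.5 in BRCA1-null with entinostat. The lines did not overlap. The difference passed the test in DMSO (−0.34, SE 0.0842, adjusted p = 0.0108) and not in entinostat (−0.21, adjusted p = 0.0864).

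Other genes inside blocks 8 and 9 also had negative medians, described with no test and from few genes. For the counts called below, the shares over all tested genes were 21.1% higher and 21% lower in DMSO, and 20.5% and 18.9% in entinostat. The 11 tested other genes of block 8 had a median of −0.33 in DMSO (1 higher and 2 lower) and −0.20 in entinostat (none higher and 3 lower). The 26 of block 9 had −0.14 in DMSO (2 higher and 6 lower) and −0.20 in entinostat (1 higher and 6 lower). Of these, 7 were zinc finger genes with other symbols, and the 19 without them had −0.13 in DMSO (1 higher and 4 lower) and −0.21 in entinostat (1 higher and 4 lower). In block 7 the 28 tested other genes had a median of 0.07 in DMSO, where the members had −0.17, and in block 6 the 12 others, 3 of them zinc finger genes with other symbols, had −0.04 and the members −0.20.

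**Figure D4:**
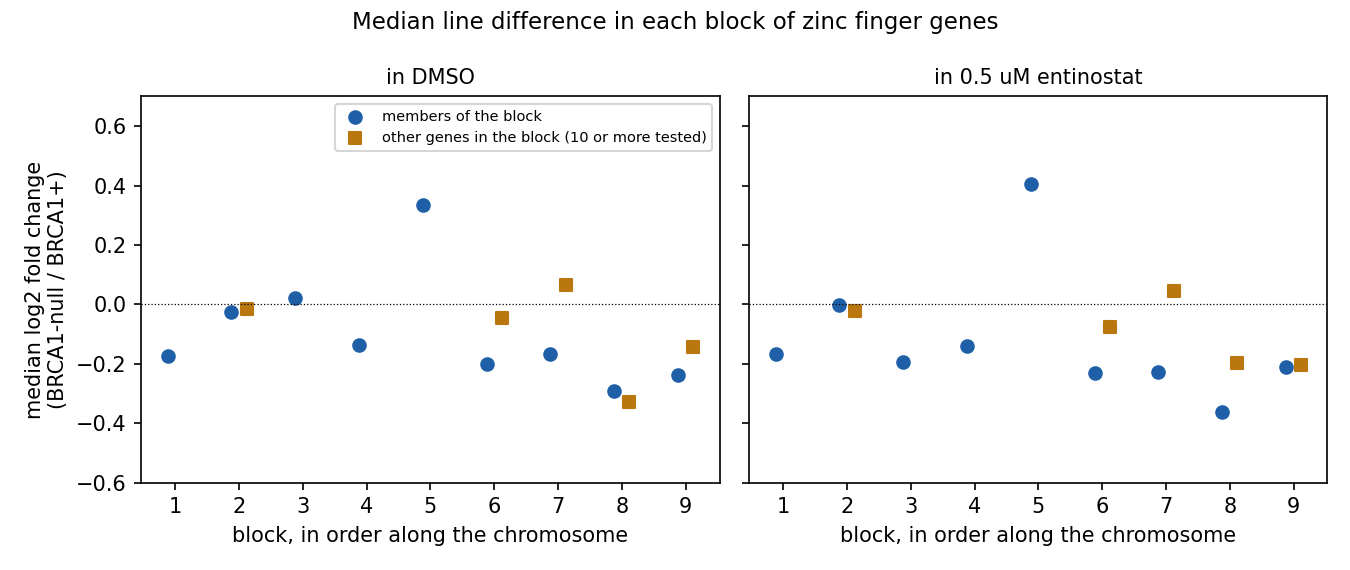
Median log2 fold change of BRCA1-null over BRCA1+ (y axis) of the members (circles) and of the other genes lying in the same block (squares, zinc finger genes with other symbols included, where at least 10 were tested) in blocks 1 to 9 (x axis), in DMSO on the left and entinostat on the right. In block 8 both are below 0 (−0.29 and −0.33 in DMSO), and the members of block 5 stand above 0 (0.33 and 0.41).

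Block 5, a small group of 5 genes in 19q13.11, had the only block median above 0.1 between the lines. ZNF792 had 0.675 and 0.784 CPM in BRCA1+ with DMSO and 1.43 and 1.64 in BRCA1-null (1.07, SE 0.286, adjusted p = 0.0147), and 1.23 and 0.927 against 2.88 and 2.25 in entinostat (1.29, SE 0.246, adjusted p = 0.00279). ZNF30, its neighbour, had 1.25 and 1.66 against 2.22 and 2.35 CPM in DMSO (0.64, adjusted p = 0.0424), a call lost in 10 of 15 alternatives. In entinostat ZNF30 had 1.77 and 1.36 against 3.73 and 4.07 CPM (1.35, SE 0.207, adjusted p = 0.00083). Both genes were higher in every BRCA1-null library than in the BRCA1+ libraries of the same treatment. The other 3, ZNF302 (−0.01, adjusted p = 0.946), ZNF181 (0.33, adjusted p = 0.236) and ZNF599 (−0.09), were not called in DMSO.

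The other higher members were mostly genes of blocks 3 and 4 at low levels. ZNF429, in the large pericentromeric block 4, had 4.08 and 3.83 CPM in BRCA1+ with DMSO, 3.72 and 4.07 in BRCA1+ with entinostat, 6.48 and 6.55 in BRCA1-null with DMSO and 5.40 and 5.51 in BRCA1-null with entinostat. The lines were apart in both treatments (0.72, adjusted p = 0.00183, and 0.47, adjusted p = 0.0223), but the call in entinostat was lost in 5 of 15 alternatives. ZNF486 had 15.4 and 16.1 against 19.1 and 20.9 CPM in DMSO (0.35, adjusted p = 0.0134). ZNF626, called in entinostat alone, had 10.8 and 9.61 against 12.6 and 12.6 CPM there (0.31, adjusted p = 0.0437), and that call was lost in 12 of 15 alternatives.

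ZNF99, also of block 4, rested on 1 library. It had 58 and 160 counts in the BRCA1-null DMSO libraries, or 1.27 and 2.94 CPM, against 0.926 and 0.763 CPM in BRCA1+ (1.37, adjusted p = 0.0252). The call was lost without the second of these BRCA1-null libraries and without either BRCA1+ library. ZNF676, another low member, chosen after its values were seen, had 8 and 20 counts in BRCA1+ and 80 and 38 in BRCA1-null with DMSO (1.85, adjusted p = 0.0419).

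Block 4 also held members known for their targets, named for that with the results known. ZNF91 represses SVA elements. It had 29.6 and 32.1 CPM in BRCA1+ and 29.1 and 30.0 in BRCA1-null with DMSO, which overlap (−0.06, adjusted p = 0.566). ZNF93, which represses young L1 elements, had 16.1 and 19 against 13.5 and 13.7 CPM in DMSO (−0.37, adjusted p = 0.015) and did not pass in entinostat (−0.25, adjusted p = 0.0887). The near-identical fingers of genes in this block make counts of single members uncertain, since the handling of reads with several matches is not given in the sources used here.

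Among the members outside the blocks, 4 were lower in DMSO (ZNF526, ZNF541, ZNF114 and ZNF473). ZNF114 (chr19:48774654-48790863, hg19) had 33.9 and 35.0 CPM in BRCA1+ with DMSO, 28.2 and 31.1 in BRCA1+ with entinostat, 18.7 and 16.3 in BRCA1-null with DMSO and 16.8 and 12.2 in BRCA1-null with entinostat. It was among the clearest differences of the set, with every BRCA1-null library below every BRCA1+ library (−0.98, SE 0.132, adjusted p = 0.000381 in DMSO, and −1.03, SE 0.139, adjusted p = 0.000397 in entinostat). ZNF473, whose protein acts in the processing of histone pre-mRNA, was named for that role with the results known. It had 16.5 and 18.3 against 13.6 and 11.8 CPM in DMSO (−0.46, adjusted p = 0.00634) and 18.5 and 18.1 against 13.4 and 12.3 in entinostat (−0.51, adjusted p = 0.0046).

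Others named by size of change lay elsewhere. ZNF439, in block 3, had 1.83 and 1.15 CPM in BRCA1+ and 0.725 and 0.405 in BRCA1-null with DMSO (−1.41, SE 0.447, adjusted p = 0.0306), and 1.77 and 2.07 against 1.19 and 0.479 in entinostat (−1.18, SE 0.398, adjusted p = 0.0412). Its libraries did not overlap, but those of a group differed widely, and its call was lost in 2 of 15 alternatives in DMSO and 4 of 15 in entinostat. ZNF492, in block 4, was called in entinostat, with 5.49 and 6.27 against 4.18 and 2.68 CPM (−0.78, adjusted p = 0.0313), and not in DMSO (−0.23, adjusted p = 0.446). ZNF428, the member of block 7 with the highest level, had 30.8 and 27.1 against 22.0 and 23.8 CPM in DMSO (−0.33, adjusted p = 0.0141). The highest members of blocks 1, 3 and 4, ZNF556 (−0.26), ZNF791 (−0.08) and ZNF675 (−0.06), were not called in DMSO.

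The second question was how the members respond to entinostat. Few members passed the test at this dose and time. In BRCA1+ cells 1 of 250 members passed the test (0.4%), against 14.1% of all tested genes, and in BRCA1-null cells 6 did (2.4%), against 10.8%. At an unadjusted p under 0.05 the counts were 17 and 34. The member called in BRCA1+ was lower (background 6% lower and 8.13% higher), and of those in BRCA1-null 4 were higher and 2 lower (background 7.57% higher and 3.19% lower). The members had a median change of −0.02 in the first line and −0.04 in the second. Of tested ZNF genes elsewhere 23 and 22 of 256 were called, and of the other genes of chromosome 19, 202 and 143 of 1012. Of those 104 members at the higher level, 1 and 2 were called, against 17.6% and 11.4% of all genes at that level. The libraries of DMSO and entinostat did not overlap for 112 members in BRCA1+ (44.8% against 57% of all tested genes) and for 113 in BRCA1-null (45.2% against 54.7%).

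ZNF507, which lies between blocks 4 and 5, was the member called in BRCA1+ cells. It had 37.9 and 41.7 CPM with DMSO and 33.1 and 32.3 with entinostat in BRCA1+ (−0.29, SE 0.0757, adjusted p = 0.0364), and 40.2 and 38 against 34.7 and 35.7 in BRCA1-null (−0.15, adjusted p = 0.228). All 4 entinostat libraries lay below all 4 DMSO libraries, but the call was lost in 6 of 15 alternatives, upper-quartile scaling and the fit of only the groups compared among them.

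In BRCA1-null cells ZNF211, ZNF30, ZNF582-AS1 and ZNF585A rose and ZNF737 and ZNF566 fell. ZNF211, in block 9, had 3.78 and 3.11 CPM with DMSO and 5.44 and 5.70 with entinostat in BRCA1-null (0.70, SE 0.144, adjusted p = 0.0183). In BRCA1+ it had 5.43 and 5.27 against 7.44 and 7.29 CPM, with no overlap and an adjusted p just past the threshold (0.46, adjusted p = 0.0501). ZNF30 had 2.22 and 2.35 against 3.73 and 4.07 CPM in BRCA1-null (0.76, SE 0.179, adjusted p = 0.0294). ZNF582-AS1 rose by 0.47 (adjusted p = 0.0421) and ZNF585A, from 8.64 and 9.81 to 12 and 12.8 CPM, by 0.42 (adjusted p = 0.0407), calls lost in 10 and 9 of 15 alternatives. Those of ZNF211 and ZNF30 were lost in 4 and 6. ZNF211, ZNF582-AS1 and ZNF585A were also lower in BRCA1-null than in BRCA1+ cells with DMSO, a comparison that shares the BRCA1-null DMSO libraries.

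ZNF737, in block 4, had 7.74 and 8.96 CPM with DMSO and 5.63 and 5.60 with entinostat in BRCA1-null (−0.58, SE 0.134, adjusted p = 0.0286), a call lost in 6 of 15 alternatives. ZNF566, in block 6, had 7.69 and 7.56 against 5.89 and 4.72 CPM (−0.52, adjusted p = 0.0481), a call lost in 12 of 15. In BRCA1+ cells the 2 genes had 6.95 and 8.24 against 7.10 and 7.16 CPM and 7.98 and 9.02 against 6.59 and 7.18 CPM. ZNF382, a KRAB repressor described as a tumor suppressor and named for that role with the results known, had 2.55 and 1.88 against 4.12 and 3.30 CPM in BRCA1-null and missed the threshold (0.77, adjusted p = 0.0523).

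The count in BRCA1-null cells was 0 when the fit held only the groups compared, and 2 by DESeq2. With the replicate number added to the fit, the counts rose to 12 in BRCA1+ (beside 4314 genes in all) and 22 in BRCA1-null (beside 3640). No member was called in both lines, but no difference between the lines' responses was found either. By edgeR's test of the interaction of line and entinostat, 0 of 250 members and 0 of 17714 genes passed, with 5 members at an unadjusted p under 0.05, and DESeq2 called 0 members and 11 genes in all. Between the lines, whose responses come from separate libraries, 174 of 250 members (69.6%) moved in the same direction, with Pearson's r of 0.399 across members and 0.594 across all tested genes. Block 5 had the largest block median in BRCA1-null cells (0.52, with 4 of 5 members above 0 and 1 called).

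**Figure D5:**
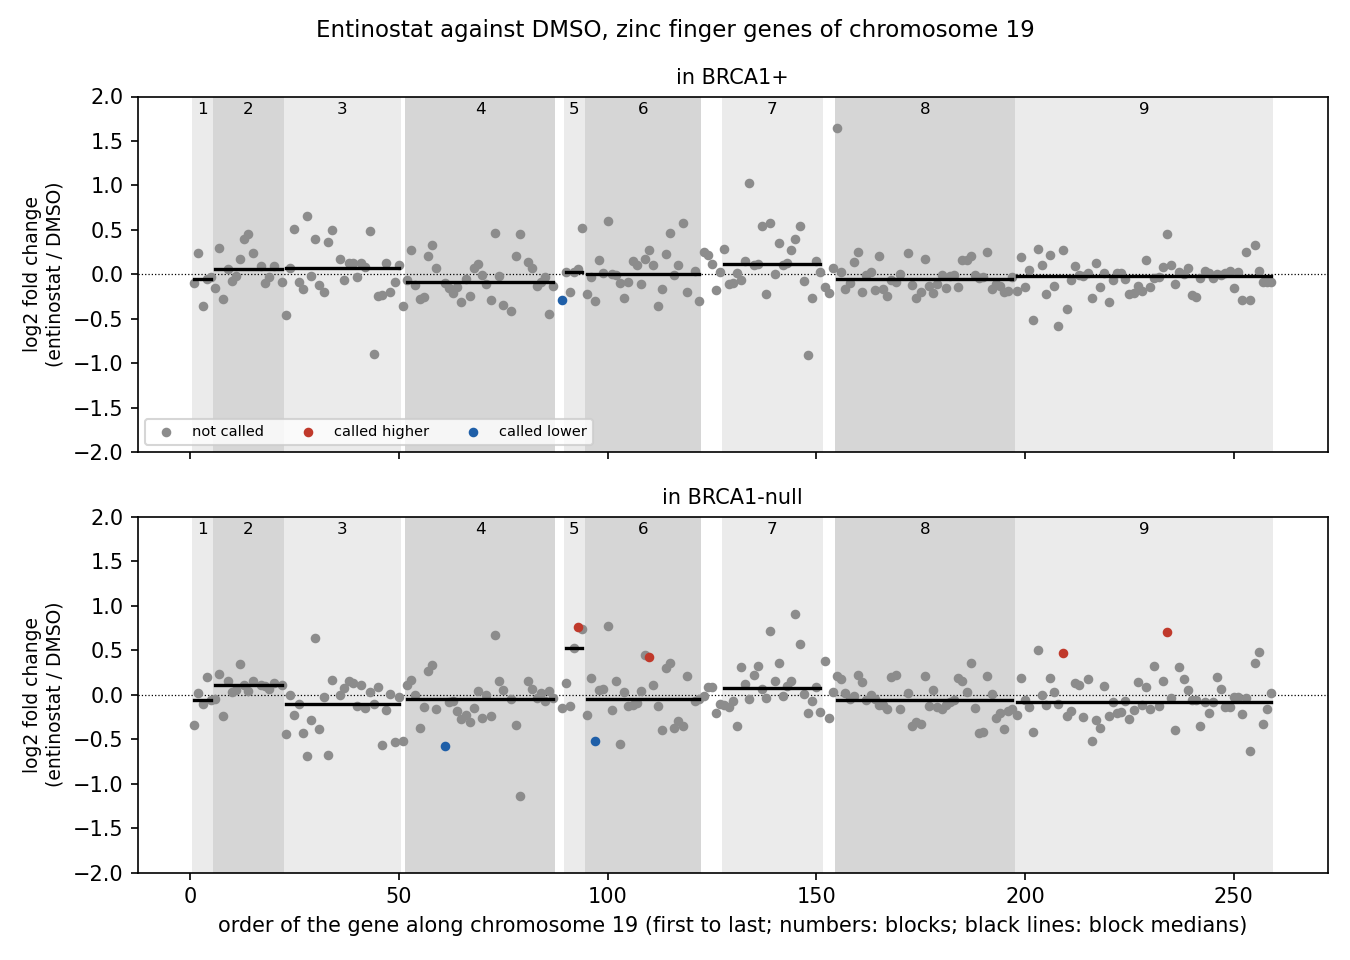
Log2 fold change of entinostat over DMSO (y axis) for each tested member in its order along chromosome 19 (x axis), in BRCA1+ above and BRCA1-null below, with called genes in colour, blocks shaded and black lines at block medians. The medians lie near 0 (−0.02 and −0.04 over all members), with 1 called gene in the upper panel and 6 in the lower, where block 5 has a median of 0.52.

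The corepressors through which KRAB zinc finger proteins act were examined with a list of 41 genes, of which 39 were tested. In DMSO 4 were higher and 13 lower in BRCA1-null cells, and in entinostat 5 were higher and 10 lower. In either direction, these shares (43.6% and 38.5%) were close to those of all tested genes (42.2% and 39.4%). Of the calls, 23.5% in DMSO and 33.3% in entinostat were higher, against 50.1% and 52.1% of the calls over all genes. TRIM28, itself on chromosome 19 beyond block 9 (chr19:59055836-59062082, hg19), had 676 ± 24.7 CPM (SD, n = 2) in BRCA1+ and 590 ± 8.26 in BRCA1-null with DMSO (−0.20, SE 0.0529, adjusted p = 0.0156 by edgeR). SETDB1 had 52.7 ± 0.687 against 48.3 ± 1.76 CPM and did not pass (−0.12, adjusted p = 0.204 by edgeR). HDAC1, the catalytic subunit of several corepressor complexes and a target of entinostat, had 253 ± 8.51 against 178 ± 1.43 CPM (−0.51, adjusted p = 0.000118 by edgeR).

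The DNA methyltransferase DNMT3B had 68.7 ± 3.29 CPM in BRCA1+ and 24.6 ± 0.426 in BRCA1-null with DMSO (−1.48), and the HP1 gene CBX1 had 133 ± 4.05 against 104 ± 5.29 (−0.36). In the other direction, the HP1 gene CBX3 had 204 ± 11 against 258 ± 11.1 CPM (0.34), MPHOSPH8 of the HUSH complex 16.2 ± 0.0804 against 26.4 ± 1.84 (0.70) and the chromatin remodeller ATRX 61.0 ± 2.16 against 110 ± 1.10 (0.85). All 5 passed the test. With entinostat, 3 genes of the list rose and 4 fell in BRCA1+ cells, TRIM28 among the latter (−0.21, adjusted p = 0.0307 by edgeR), and 3 rose and 3 fell in BRCA1-null cells. These were 17.9% and 15.4% of the tested genes of the list, against 14.1% and 10.8% of all tested genes.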

How the data were processed

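The authors made the deposited raw counts by aligning poly(A) RNA-seq reads with TopHat 2 (hg19) and summing reads for each gene in 8 libraries. Strand use and the handling of multi-mapped reads are not given in the sources used here. The 1 unnamed entry held 0 counts, and 0 columns belonged to other samples. From these counts, genes passing filterByExpr (17714) were scaled by TMM and fitted in edgeR 4.0.16 (R 4.3.3, limma 3.58.1), with 1 mean per group, 4 residual degrees of freedom and the quasi-likelihood test. The code was tried on simulated counts with 1 fixed spread for all genes, where recovery was required only for the largest seeded changes. That trial does not show how the test does at the small changes and the spreads of the members. P-values were adjusted by Benjamini-Hochberg over all tested genes, two-sided, and called under 0.05. CPM used the scaled library sizes (3 counts were 0.0552 to 0.0946 CPM), and RPKM divided CPM by the table's gene length. Depth limits members of few counts.

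Genes named were, per comparison, up to 6 in each direction with the largest change among called members whose log2 CPM averaged 0 or more with non-overlapping libraries, the 5 highest by RPKM, the highest of each block, TRIM28, SETDB1 and BRCA1. Others are marked in the text or complete a list or pair there, and further genes of the fixed corepressor list are examples. The members and lists were chosen with earlier results of these data known. Protein features, planned at the start, were not computed. Alternatives were DESeq2 size factors, upper-quartile scaling, other filters, the Wald test of DESeq2 1.42.0, a replicate block, fits on the groups compared, subsets of members and leaving out each library.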

Additional observations from a re-analysis of the deposited data

How the results depend on the processing

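All results below are counts of members called, or medians of log2 fold changes over tested members. Between the lines in DMSO (63), the count was 40 by DESeq2 and 31 for members whose log2 CPM averaged 3 or more (an alternative chosen after seeing the data), and leaving out 1 library gave 22 to 59. In entinostat (54), it was 27 at that level and 20 to 55 without 1 library. For entinostat in BRCA1+ (1), it was 2 with DESeq2 size factors, with upper-quartile scaling, with the stricter filter and by DESeq2, and 0 to 3 without 1 library. With upper-quartile scaling both were higher and ZNF507 was not among them. In BRCA1-null (6), it was 0 in a fit of only the groups compared, 2 by DESeq2 and 2 at the higher level, and 0 to 5 without 1 library. The interaction gave 0 in every edgeR fit. The cause of these shifts was not tested, beyond the fewer genes or libraries that some of them use.

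The median line difference ran from −0.21 to −0.14 in DMSO and from −0.22 to −0.18 in entinostat without 1 library, and was −0.16 in entinostat at the higher level. The median change with entinostat in BRCA1+ turned to 0.03 with upper-quartile scaling, and in BRCA1-null ran from −0.077 to −0.025 without 1 library. The block medians between the lines kept their sign under all 14 alternatives in blocks 1, 5, 6, 7, 8 and 9, while in DMSO those of blocks 2, 3 and 4 changed sign under some (block 4 from −0.30 to 0.05), and in entinostat that of block 2. In DMSO they ran from 0.17 to 0.52 in block 5, −0.30 to −0.25 in block 8 and −0.27 to −0.15 in block 9. With a gap of 0.5 Mb there were 10 blocks, and block 9 split into 19 members (median −0.17) and 43 (−0.26).

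The labels do not say that replicate numbers mark a shared batch, so the numbers were not taken as pairing. Across 17714 genes, the departures of same-numbered libraries from their group means correlated between groups at 0.0523 to 0.287, all above 0. A shared effect of the replicate number was therefore not excluded, and it was not tested. With the replicate block, 84 and 74 members were called between the lines and 12 and 22 with entinostat in BRCA1+ and BRCA1-null cells, where all genes called were 8956, 8398, 4314 and 3640 of 17714. Among named genes, 587 values kept their side of the threshold, 119 lost a call, 6 gained one and 8 turned sign, all of the latter in genes not called. In DMSO without 1 library, ZNF542P ran from −0.31 to 0.0417 (0.0064 without the first BRCA1-null library), ZNF675 from −0.27 to 0.188 (0.0863) and ZNF302 from −0.0554 to 0.0443 (0.0184), and ZNF302 turned to 0.0369 with upper-quartile scaling and 0.0278 with the stricter filter. ZNF429, ZNF132, ZNF114, ZNF702P, ZNF416 and ZNF582-AS1 kept their call in DMSO under all 15 alternatives, and ZNF30, ZNF792, ZNF114, ZNF702P, ZNF836 and ZNF615 in entinostat. In DMSO the calls of ZNF99, ZNF792 and ZNF93 were lost in 3 of 15, those of ZNF837, ZNF486, ZNF428 and ZNF473 in 2 and that of ZNF274 in 1. In entinostat that of ZNF492 was lost in 3.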

Other observations

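Chromosome 19 also holds 18 zinc finger genes with other symbols (such as ZFP, ZIK and ZIM), of which 13 were tested. ZFP28 and ZIK1, which lie among the members, were lower in BRCA1-null cells. ZFP28, a KRAB zinc finger gene, had mean levels of 10.3 CPM in BRCA1+ and 5.21 in BRCA1-null with DMSO (log2 fold change −0.98, adjusted p = 0.000166 by edgeR). ZIK1 had 16.8 and 8.34 CPM (−1.01, adjusted p = 0.000386). In entinostat the differences were −0.83 and −0.85. The 2 others called in DMSO, ZBTB32 and ZIM3, were higher in BRCA1-null cells at levels near the floor.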
